A study of Mus musculus with 9 samples.

Results

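The genes described are the 35 heat shock and cytosolic chaperone genes on a list of symbols, with the mitochondrial partners and the polyubiquitin gene that are usually counted with them. All 35 were found among the 21878 gene symbols of the count table, and all 35 passed the minimum mean of 10 counts at which 12302 genes were tested. The cells came from C57BL/6 mice. Their primary hepatocytes had been turned into liver progenitors in culture, given a lentivirus, redifferentiated for 3 weeks and then kept in CuCl2 for 24 hours. The dose is 100 µM in the protocols and 100 mM in the treatment field. The 9 samples form 3 groups of 3, all copper-treated: KO-ATP7B, which are ATP7B-/- cells given an ATP7B lentivirus, KO-GFP, which are ATP7B-/- cells given a GFP lentivirus, and WT-GFP, which are WT cells given a GFP lentivirus. ATP7B is the copper-exporting ATPase of hepatocytes. The growth protocol calls the WT cells ATP7B-transduced, while titles and design text say GFP; the name in the titles was kept. The labels do not give the promoter of the lentivirus, the number of mice or whether replicates came from separate cultures.

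The count columns carry only running numbers. WT-GFP replicates 2 and 1 could be tied to a column, because each also has a file of its own with the same number. The other 7 columns were not used. What follows is therefore the state of the heat shock genes in copper-treated WT-GFP cells and how far it varied between 2 libraries of that group. It holds no comparison of genotypes or vectors, and no library without copper was analysed, so no level can be set against untreated cells.

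The heat shock response is the cell's answer to misfolded protein. In mammals its main transcription factor, HSF1, is held inactive by chaperones, and when these are drawn away by unfolded clients it forms trimers that bind heat shock elements, inverted repeats of the unit GAA, near the starts of chaperone genes. HSP70 proteins bind exposed hydrophobic stretches in cycles of ATP hydrolysis, J-domain proteins deliver clients and start the hydrolysis, nucleotide exchange factors release them, and HSP90 finishes the folding of kinases and hormone receptors. Small heat shock proteins hold unfolded clients without using ATP. Metal ions, copper among them, are known inducers of the response in cultured cells.

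Replicate 2 held 17821682 counts over 14923 genes with at least 1 count, and replicate 1 held 18532457 counts over 14759 genes. For a gene without counts the upper limit, taken as 3 counts, is 0.168 CPM (counts scaled to a common library total) in replicate 2 and 0.162 CPM in replicate 1. Among hepatocyte markers 7 of 10 reached 10 FPKM (counts divided by gene length and library total), led by Alb at 930 FPKM. The other hepatocyte markers were Asgr1 at 0.0708 FPKM, Cps1 at 1.21 FPKM and Cyp2e1 at 2.26 FPKM. Of the progenitor or biliary markers 5 of 7 reached 10 FPKM, led by Cd24a at 649 FPKM, while Epcam was at 2.04 FPKM and Prom1 at 1.56 FPKM. That level was reached by 27.1% of all symbols and 48.1% of all genes tested. The bulk RNA thus held markers of both kinds, and whether the same cells carried both was not measured. All 5 endothelial and all 5 stellate cell or fibroblast markers lay below 1 FPKM. Of 5 macrophage markers only Cd68 reached 10 FPKM, at 17.1 FPKM, and Adgre1 and Clec4f had no counts in either library. Over all genes tested, the chi-square of the counts between the libraries was 5.25 per degree of freedom (12301 degrees), where counting error alone gives about 1. The exact binomial p-values below hold counting error only. They set these libraries apart, not conditions, and such differences may be technical.

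The heat shock genes were strongly expressed, and most were higher in replicate 2. Their joint share of all counts was 1.43% in replicate 2, with a Wilson 95% interval of 1.43 to 1.44, against 1.24% in replicate 1, with an interval of 1.24 to 1.25; this averages 1.34% ± 0.134 (SD, n = 2). Of the 35 genes 22 were higher in replicate 2, 0 were lower and 13 did not pass the test at an adjusted p of 0.05, whereas 8.38% of all 12302 genes tested were higher (1031) and 6.38% were lower (785). With TMM library sizes, which allow for RNA composition, the split of all genes turned to 836 higher and 958 lower, while that of the 35 genes was 21 higher and 0 lower. The median log2 ratio of replicate 2 to replicate 1 was 0.15 over the 35 genes and 0.01 over all genes tested. It exceeded 0 for 34 of them, the exception being Bag1, at -0.0011. With a log2 ratio of at least 0.5 also required, Hspa1a and Hspa1b were the 2 genes left, where 0.992% of all genes tested were higher by that rule. Among the 4409 genes that averaged 1000 counts or more, the middle 95% of log2 ratios ran from -0.19 to 0.23 (SD 0.11), and 10 of the 30 heat shock genes with that many counts lay above it. Smaller ratios pass the test where counts are high, and 30 of the 35 genes had that many counts, against 4409 of all 12302. The shares of genes that passed, here and below, therefore do not compare genes of equal count.

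**Figure D1:**
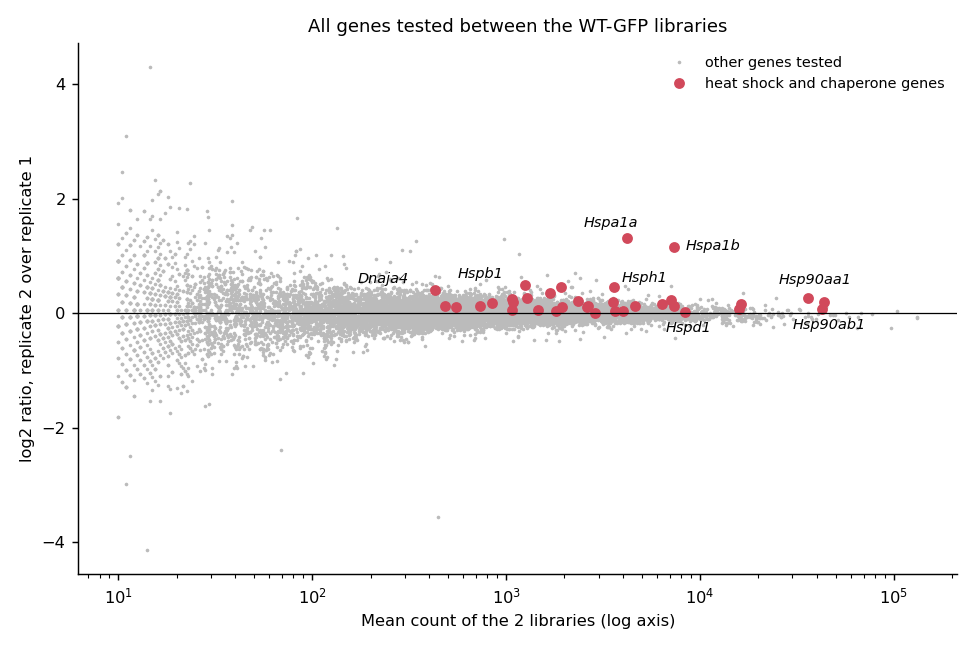
Each point is 1 of the 12302 genes tested. The horizontal axis is the mean count of both WT-GFP libraries on a log axis and the vertical axis the log2 ratio of replicate 2 to replicate 1; the 35 heat shock and chaperone genes are drawn in red. Hspa1a (1.31) and Hspa1b (1.16) stand far above other genes of similar count, and most of the other red points sit slightly above 0.

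The promoter sequences of the 3 genes with the largest ratios are shown before their values. The heat shock element is the binding site through which HSF1 is known to act, but whether it bore on these ratios was not tested. They are the 200 bases before the annotated start, from RefSeq on GRCm38.p6. Capitals mark 2 facing units, GAANNTTC. None of these bases is exonic in GENCODE M21. Hspa1a stands at chr17:34972157-34972356, minus strand, Hspa1b at chr17:34959239-34959438, minus strand, and Hspb1 at chr5:135887719-135887918, plus strand.
Hspa1a: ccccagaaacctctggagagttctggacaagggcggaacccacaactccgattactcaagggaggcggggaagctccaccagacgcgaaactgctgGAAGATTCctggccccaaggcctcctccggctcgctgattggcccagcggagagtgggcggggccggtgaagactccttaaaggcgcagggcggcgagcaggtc
Hspa1b: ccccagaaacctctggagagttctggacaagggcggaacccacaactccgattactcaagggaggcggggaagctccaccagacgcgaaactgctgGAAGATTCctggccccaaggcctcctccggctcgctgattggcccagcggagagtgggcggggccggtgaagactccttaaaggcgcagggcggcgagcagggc
Hspb1: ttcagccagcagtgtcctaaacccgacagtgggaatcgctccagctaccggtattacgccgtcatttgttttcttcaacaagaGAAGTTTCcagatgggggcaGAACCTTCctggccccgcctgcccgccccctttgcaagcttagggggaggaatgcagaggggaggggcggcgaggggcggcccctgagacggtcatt
The Hspa1a and Hspa1b stretches are identical at 199 of 200 bases (99.5%), and each has a single match, which begins at position -104 counted from the annotated start. Hspb1 has a pair of matches, beginning at -117 and -97.

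Further elements of at least 3 alternating units are given alone, since they lie in or next to exons. The Hspe1 element (chr1:55088059-55088076, plus strand) lies at the overlapping divergent starts of Hspe1 and Hspd1, so that its other strand is the Hspd1 element. The others are Chordc1 (chr9:18292263-18292285, plus strand), Hsph1 (chr5:149636288-149636300, minus strand) and Dnajb6 (chr5:29735852-29735864, plus strand).
Hspe1: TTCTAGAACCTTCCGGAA
Hspd1: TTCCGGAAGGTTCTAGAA
Chordc1: GAACGTTCGGGAAAATTCCTGAA
Hsph1: TTCTGGAAAGTTC
Dnajb6: GAATCTTCCGGAA
In all, 27 of the 35 genes were matched in the RefSeq promoter table, whose windows run from 250 bases before to 50 bases after each start. The motifs searched on both strands were GAANNTTC and TTCNNGAA for 2 units, each of which reads the same on either strand, and GAANNTTCNNGAA and TTCNNGAANNTTC for 3 units, which contain the 2-unit motifs. A 2-unit match was present in 13 of the 27 genes (48.1%) and in 17.0% of the 27025 genes of the table. Matches of 3 units were present in 5 of the 27 (18.5%) and in 0.662% of the table. These counts take Hspe1 and Hspd1 separately though they share the same element, and likewise the near-identical promoters of Hspa1a and Hspa1b. Genes with several listed starts have more bases searched; among genes with 1 window the 2-unit shares were 38.9% of 18 heat shock genes and 15.2% of 22862 genes, and the 3-unit shares were 11.1% and 0.503%. A match in these windows is a description of the letters and no measure of binding.

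**Figure D2:**
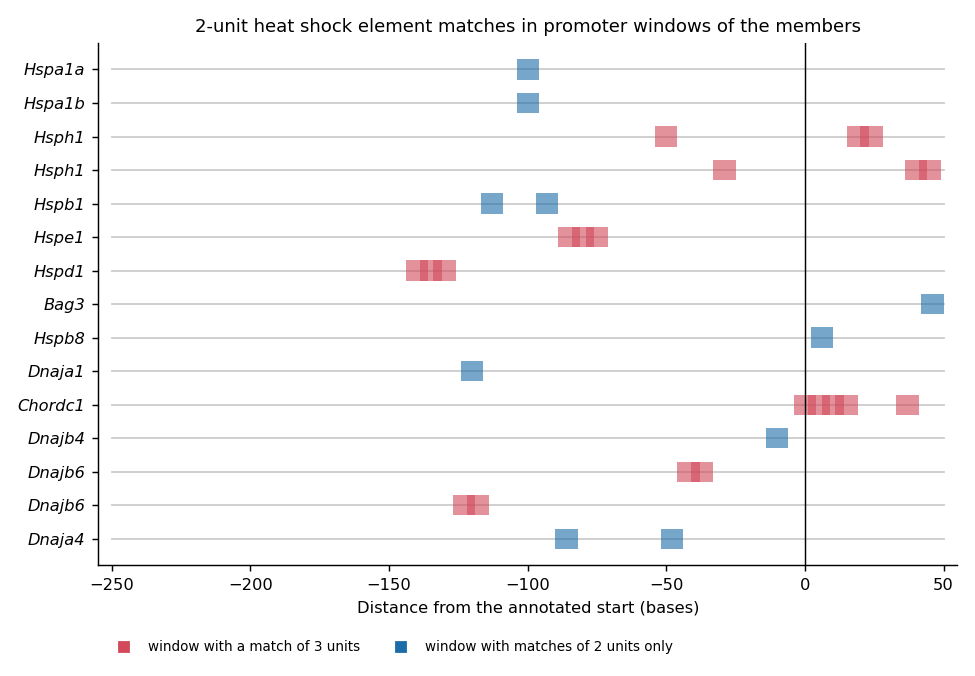
Each grey line is 1 promoter window, from 250 bases before to 50 bases after the annotated start (horizontal axis, in bases), and each box is a 2-unit match. Red windows hold a run of 3 units and blue windows hold 2-unit matches only; the boxes of Hspa1a and Hspa1b lie at the same place, and the 3-unit windows belong to Hsph1, Hspe1, Hspd1, Chordc1 and Dnajb6.

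Ratios of genes with and without a match overlapped, and the difference was not tested. The 13 genes with a 2-unit match had log2 ratios of 0.02 to 1.31 with a median of 0.23, and 8 of them were higher in replicate 2. The 14 genes without one had ratios of -0.0011 to 0.45, the highest in Dnajb1, with a median of 0.14, and again 8 were higher. Over all genes tested 8.38% were higher. Of the 5 genes with 3 units 2 were higher, Hsph1 and Chordc1, and Hspe1, Hspd1 and Dnajb6 did not pass the test. The other 8 genes, not in the promoter table, are Hsp90aa1, Hsp90ab1, Hspa8, Cryab, Hsf1, Hspa9, Hspa13 and St13.

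The HSP70 family and its HSP110 cochaperones had the widest differences. Of these 10 genes 9 were higher in replicate 2 and 0 were lower, where 8.38% of all genes tested were higher and 6.38% lower. Their median log2 ratio was 0.20. Hspa1a (ENSMUSG00000091971.3, chromosome 17, 34969190 to 34972156, minus strand, 1 exon) encodes stress-inducible HSP70. It stood at 118.5 FPKM in replicate 2 and 47.8 FPKM in replicate 1, from 5908 and 2478 counts. Hspa1b (ENSMUSG00000090877.3, chromosome 17, 34956436 to 34959238, minus strand, 1 exon), its near-identical neighbour, stood at 200.6 FPKM in replicate 2 and 89.9 FPKM in replicate 1, from 10045 and 4680 counts. The log2 ratio was 1.31 for Hspa1a, with a counting error (SE) of 0.035, and 1.16 for Hspa1b, with one of 0.026. By the exact binomial test with Benjamini-Hochberg adjustment both adjusted p-values were below 1e-300. Of all genes tested 99.4% had a smaller absolute ratio than Hspa1a and 99.1% a smaller one than Hspa1b.

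The split of reads between these neighbours is uncertain. Of all 50-base stretches of the annotated transcripts 66.3% in Hspa1a and 62.3% in Hspa1b recur in another gene, mostly in each other, and Hspa1a also overlaps exons of Gm20481 on the opposite strand over 564 bp. Summed, which removes the split between them, they had 15953 counts in replicate 2 and 7158 counts in replicate 1, or 895 CPM and 386 CPM, a 2.32-fold difference with a log2 ratio of 1.21. Their joint part of the summed FPKM of Hspa1a, Hspa1b, constitutive Hspa8 and Hspa2 was 20.6% in replicate 2 and 11.4% in replicate 1. It depends on the gene length: with GENCODE M21 exon lengths it was 34.0% in replicate 2 and 20.3% in replicate 1. Without the pair the heat shock genes still took 1.34% of all counts in replicate 2 and 1.20% in replicate 1.

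Hspa8 (ENSMUSG00000015656.17, chromosome 9, 40800984 to 40810087, plus strand), the constitutive HSC70, was the most abundant of the 35 genes at 1217 FPKM in replicate 2 and 1060 FPKM in replicate 1, the level of rank 18 among all symbols. Its log2 ratio was 0.20, far below that of the inducible pair, with an adjusted p of 5.35e-90 by the exact binomial test. Hspa9, the mitochondrial HSP70, stood at 293 FPKM in replicate 2 and 279 FPKM in replicate 1, with a log2 ratio of 0.07 and an adjusted p of 0.000122 by the same exact test. Hsph1 (ENSMUSG00000029657.15, chromosome 5, 149614287 to 149636376, minus strand), an HSP110 that exchanges nucleotide on HSP70, stood at 52.2 FPKM in replicate 2 and 37.8 FPKM in replicate 1. Its log2 ratio of 0.46 ± 0.034 (counting SE) was the fourth largest, with an adjusted p of 1.86e-39 by the exact binomial test, and none of its 50-base stretches recurs in another gene. The related HSP110 genes Hspa4 and Hspa4l were also higher in replicate 2, by log2 ratios of 0.12 and 0.20. So were Hspa14 (0.25), an HSP70 of the ribosome, and Hspa13 (0.20), an HSP70 of microsomes. Hspa2, the HSP70 known from the testis, stood at 11.3 FPKM in replicate 2 and 10.5 FPKM in replicate 1 and did not pass the test.

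**Figure D3:**
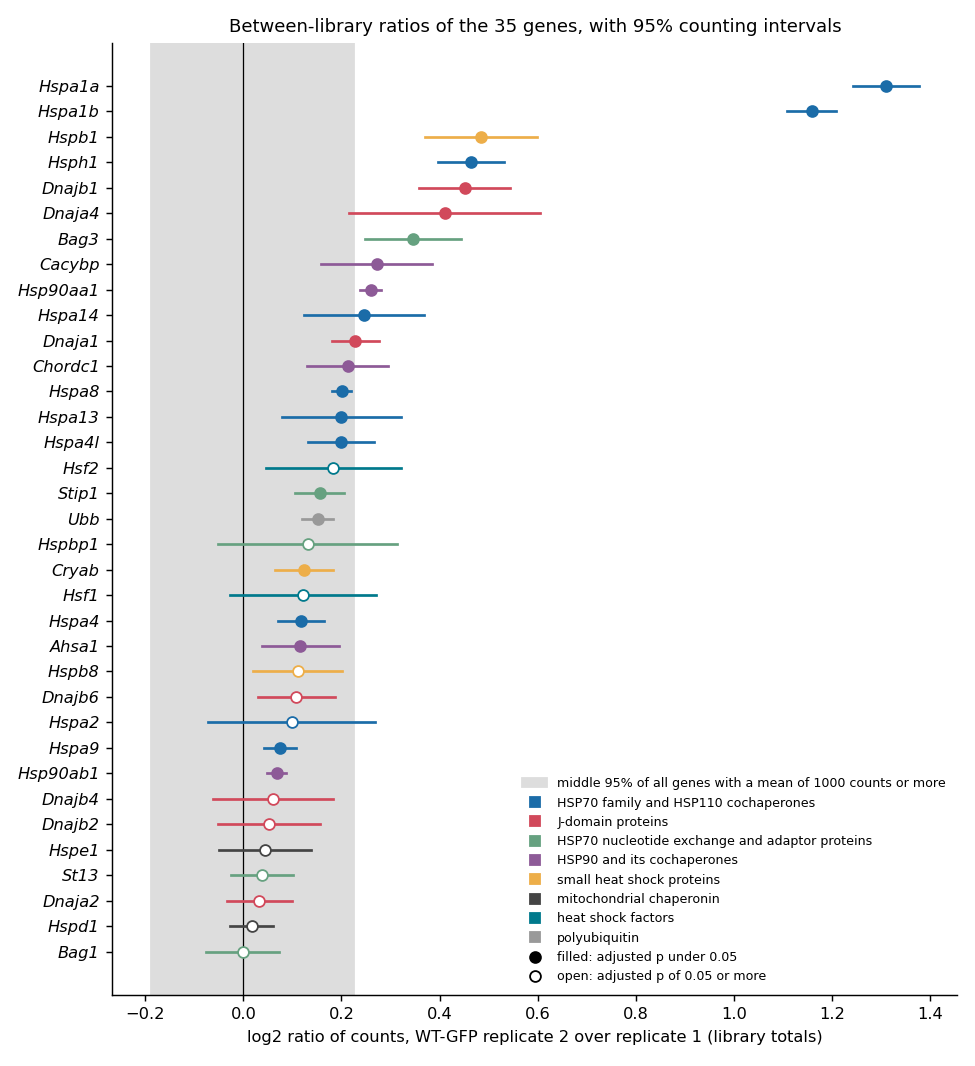
Points give the log2 ratio of counts, replicate 2 to replicate 1 (horizontal axis), for each of the 35 genes, with bars for the 95% counting interval, colours for role, filled points for an adjusted p under 0.05 and a grey band for the middle 95% of all genes that averaged 1000 counts or more (-0.19 to 0.23). Hspa1a and Hspa1b lie alone beyond 1, Hspb1, Hsph1, Dnajb1, Dnaja4 and Bag3 form the next step between 0.35 and 0.49, and Bag1 and Hspd1 sit at or near 0.

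J-domain proteins were split. Of 7 genes 3 were higher in replicate 2, 0 were lower and 4 did not pass, with a median log2 ratio of 0.11. Over all genes tested 8.38% were higher and 6.38% were lower. Dnajb1 (ENSMUSG00000005483.10, chromosome 8, 83608193 to 83612653, plus strand), the HSP40 that partners inducible HSP70, stood at 37.8 FPKM in replicate 2 and 27.7 FPKM in replicate 1. Its log2 ratio was 0.45 ± 0.047, with an adjusted p of 1.09e-19 by the exact binomial test. Dnaja4 was among the lowest of the 35 genes, at 7.65 FPKM in replicate 2 and 5.75 FPKM in replicate 1 from 482 and 377 counts, and its log2 ratio was 0.41 ± 0.099 with an adjusted p of 0.000713 by the exact binomial test. Its exons overlap those of Wdr61 on the opposite strand over 1581 bp; Wdr61 itself had 1070 counts in replicate 2 and 1047 counts in replicate 1. Dnaja1, a partner of constitutive HSP70, stood at 117 FPKM in replicate 2 and 100.0 FPKM in replicate 1, with a log2 ratio of 0.23. Dnajb6, which suppresses protein aggregation, missed the threshold closely, with a log2 ratio of 0.11 and an adjusted p of 0.0501 by the exact binomial test. Dnajb4, Dnajb2 and Dnaja2 had log2 ratios of 0.03 to 0.06 and did not pass.

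Among 5 nucleotide exchange and adaptor genes 2 were higher in replicate 2 and 3 did not pass, where 8.38% of all genes tested were higher. Bag3 (ENSMUSG00000030847.8, chromosome 7, 128523616 to 128546981, plus strand), which links HSP70 and small heat shock proteins to autophagy, stood at 40.2 FPKM in replicate 2 and 31.6 FPKM in replicate 1, a log2 ratio of 0.35 ± 0.050 with an adjusted p of 4.20e-10 by the exact binomial test. Its relative Bag1 stood at 117.7 FPKM in replicate 2 and 117.8 FPKM in replicate 1, with a 95% counting interval of the log2 ratio from -0.08 to 0.07. Stip1 (HOP), which joins HSP70 to HSP90, stood at 169 FPKM in replicate 2 and 152 FPKM in replicate 1, a log2 ratio of 0.16 that passed the test. St13 (HIP) and the exchange factor Hspbp1 had log2 ratios of 0.04 and 0.13 and did not pass.

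All 5 of the heat shock genes listed under HSP90 and its cochaperones were higher in replicate 2, by modest amounts and with a median log2 ratio of 0.21. Over all genes tested 8.38% were higher and 6.38% were lower. The 9 other HSP90 cochaperones described below had 2 higher and 2 lower. Hsp90ab1, the constitutive HSP90, stood at 960 FPKM in replicate 2 and 916 FPKM in replicate 1. Hsp90aa1 (ENSMUSG00000021270.13, chromosome 12, 110690605 to 110702728, minus strand), the inducible form, stood at 762 FPKM in replicate 2 and 636 FPKM in replicate 1. The inducible gene had the larger ratio, 0.26 ± 0.011 on the log2 scale, against 0.07 ± 0.010 for Hsp90ab1. The intervals of these ratios did not overlap, but they hold counting error only. The libraries differed by more than that, with a chi-square of 5.25 per degree of freedom over all genes tested. Whether the ratios of these genes differ beyond such spread was not tested. Hsp90aa1 made up 44.2% of the summed FPKM of both HSP90 genes in replicate 2 and 41.0% in replicate 1. With GENCODE M21 exon lengths it made up 40.8% in replicate 2 and 37.6% in replicate 1. Of the 50-base stretches of Hsp90aa1 47.5% recur in other annotated genes, with Gm12346 sharing the most. The HSP90 cochaperone Chordc1 and the ubiquitin ligase adaptor Cacybp had log2 ratios of 0.21 and 0.27. Cacybp stood at 36.4 FPKM in replicate 2 and 30.2 FPKM in replicate 1, with an adjusted p of 6.88e-05 by the exact binomial test. Ahsa1, the activator of the HSP90 ATPase, stood at 98.5 FPKM in replicate 2 and 90.9 FPKM in replicate 1; its adjusted p of 0.0287 by the exact binomial test became 0.0613 with TMM library sizes.

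Of 3 small heat shock proteins 2 were higher in replicate 2, where 8.38% of all genes tested were higher. Hspb1 (HSP25; ENSMUSG00000004951.10, chromosome 5, 135887919 to 135889563, plus strand) stood at 89.4 FPKM in replicate 2 and 63.9 FPKM in replicate 1, from 1439 and 1069 counts. Its log2 ratio of 0.49 ± 0.058, with an adjusted p of 8.34e-15 by the exact binomial test, was the largest after the inducible HSP70 pair, and 50.1% of its 50-base stretches recur in other annotated genes, most in the pseudogene Hsp25-ps1. Cryab (αB-crystallin), known from lens and muscle, was the most abundant small heat shock gene here, at 198 FPKM in replicate 2 and 182 FPKM in replicate 1, a log2 ratio of 0.12 that passed the test. Hspb8, which works with Bag3, had a log2 ratio of 0.11 and an adjusted p of 0.0898 by the exact binomial test.

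Neither gene of the mitochondrial chaperonin passed the test. Hspd1 (HSP60) stood at 181 FPKM in replicate 2 and 178 FPKM in replicate 1, and its lid Hspe1 (HSP10) at 132 FPKM in replicate 2 and 128 FPKM in replicate 1. Their log2 ratios of 0.02 (95% counting interval -0.03 to 0.06) and 0.04 (-0.05 to 0.14) lay near 0, and both genes have the 3-unit element printed above in their windows.

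Neither heat shock factor passed the test. Hsf1, the main factor of the stress response, stood at 16.9 FPKM in replicate 2 and 15.5 FPKM in replicate 1, from 746 and 713 counts, with a log2 ratio of 0.12 ± 0.076 and an adjusted p of 0.311 by the exact binomial test. Hsf2, a factor better known from development, stood at 6.97 FPKM in replicate 2 and 6.14 FPKM in replicate 1, with a log2 ratio of 0.18 ± 0.070 and an adjusted p of 0.0616 by the same exact test. A difference in their mRNA was not detectable at this depth. By deposited FPKM, Hsf1 lay above the median of 9.37 FPKM over all genes tested and Hsf2 below it. With GENCODE M21 exon lengths Hsf1 was at 5.66 FPKM, and no median over all genes tested was taken with those lengths. Ubb, a polyubiquitin gene that heat shock induces, stood at 583 FPKM in replicate 2 and 525 FPKM in replicate 1, a log2 ratio of 0.15 ± 0.016 with an adjusted p of 6.22e-19 by the exact binomial test. Of its 50-base stretches 48.1% recur in other annotated genes, chiefly Gm1821.

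**Figure D4:**
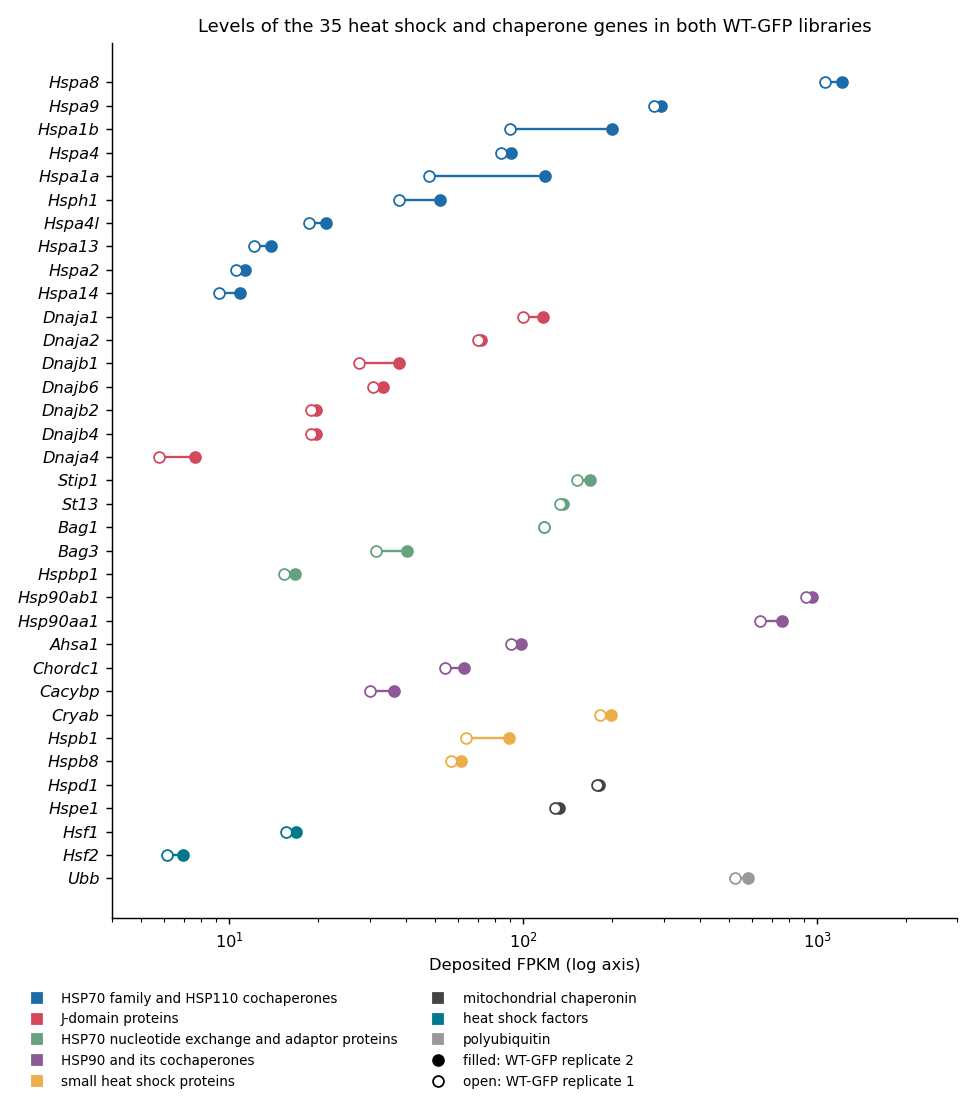
Each row is 1 gene, with its deposited FPKM on a log axis: filled points are replicate 2, open points replicate 1, and colours give the role. Hspa8, Hsp90ab1, Hsp90aa1 and Ubb lie farthest to the right, Dnaja4 and Hsf2 lie below 10 FPKM, and the longest lines join the 2 points of Hspa1b and Hspa1a.

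The level of these genes spanned more than their differences between libraries. Of the 35 genes 33 averaged at least 10 FPKM, 2 lay between 1 and 10 FPKM (Dnaja4 and Hsf2) and 0 lay below 1 FPKM, whereas 48.1% of all genes tested reached 10 FPKM. Their median was 70.8 FPKM, against 9.37 FPKM over all genes tested. In order of mean FPKM they were led by Hspa8 (1139 ± 112), Hsp90ab1 (938 ± 31.4), Hsp90aa1 (699 ± 88.6), Ubb (554 ± 41.0) and Hspa9 (286 ± 10.5), each as mean ± SD over 2 libraries, and the libraries of neighbours in this order did not overlap. That order depends on the gene length used. With the full exon length of GENCODE M21 in place of the length behind the deposited FPKM, Hsp90ab1 led at 784 FPKM, followed by Hspa8 at 557, Ubb at 536 and Hsp90aa1 at 507 FPKM, and the median of the 35 genes was 36.3 FPKM. The genes below 10 FPKM then numbered 5, namely Hspa13, Dnajb4, Dnaja4, Hsf1 and Hsf2, at 4.83 to 8.79 FPKM. Ratios between libraries do not involve the length.

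Other chaperone and heat shock genes were described in the same way. The 8 further lists hold chaperones, cochaperones, heat shock regulators and other genes that respond to HSF1. Of their 60 genes 55 could be tested, and 14 were higher in replicate 2 (25.5%), 2 were lower (3.64%) and 39 did not pass. Among all genes tested 8.38% were higher and 6.38% were lower. With TMM library sizes 11 were higher and 5 were lower, where 6.80% of all genes tested were higher and 7.79% were lower. The list of genes that respond to HSF1, described separately below, gave 5 of the 14 higher genes from only 8 tested, and 5 of the 11 with TMM. TRiC, the cytosolic chaperonin that folds actin and tubulin, had 3 of 8 subunits higher (1 with TMM) and a median log2 ratio of 0.06; Tcp1 was its most abundant subunit at 151 FPKM, and Cct5 had its largest ratio, 0.10. Prefoldin, which hands clients to TRiC, had 0 of 6 subunits past the exact binomial test and a median of 0.03; Pfdn5 had both its highest level, 90.6 FPKM, and its largest absolute ratio, -0.15. Other HSP90 cochaperones had 2 higher and 2 lower of 9 with a median of -0.02; Fkbp5, an immunophilin, led them at 248 FPKM, and Ppid, another immunophilin, had the largest ratio, 0.18. Other HSP70 cochaperones had 2 higher of 12 and a median of 0.03. Among these Dnajc5 was the most abundant, at 64.5 FPKM, and Dnajc2, a J-domain protein of the ribosome, had the largest ratio, 0.33. Mitochondrial proteases and cochaperones had 2 higher of 8 and a median of 0.09, led by the protease Lonp1 at 117 FPKM, with the largest ratio, 0.17, in Grpel1, the exchange factor of mitochondrial HSP70. Of 6 other small heat shock genes 5 lay below 1 FPKM and 3 had no counts, while Hspb6 led at 6.56 FPKM; of the pair tested neither passed, and Hspb2, with 12 counts in replicate 2 and 11 in replicate 1, had the larger ratio, 0.18. Of 3 other heat shock factors and regulators Hsbp1, a binder of HSF1, stood at 83.3 FPKM, and Hsf4 had the larger absolute ratio, -0.11; neither passed the test.

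The list of other genes known to respond to HSF1 in mammals had the highest median of these lists, 0.24, with 5 of 8 genes higher in replicate 2 and 0 lower. Of all genes tested 8.38% were higher and 6.38% were lower. Zfand2a (AIRAP), an arsenite-inducible partner of the proteasome, stood at 49.8 FPKM in replicate 2 and 30.6 FPKM in replicate 1, from 2755 and 1762 counts. Its log2 ratio was 0.70 ± 0.044, with an adjusted p of 1.19e-55 by the exact binomial test. The immediate early gene Ier5, the death effector gene Dedd2 and the inositol transporter Slc5a3 were also higher, by log2 ratios of 0.38, 0.40 and 0.31. Serpinh1 (0.06), Jmjd6 (-0.04) and Mrpl18 (-0.04) did not pass the test.

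Chaperones of the endoplasmic reticulum, which belong to the unfolded protein response, were more often lower than higher in replicate 2 among those that passed: 1 of 12 was higher, 4 were lower and 7 did not pass, with a median log2 ratio of -0.05 (0 higher and 6 lower with TMM). Of all genes tested 8.38% were higher and 6.38% were lower, and with TMM 6.80% and 7.79%. Calr, a calcium-binding chaperone, had the highest level of the list and its largest absolute ratio, with 491 FPKM in replicate 2 and 566 FPKM in replicate 1, a log2 ratio of -0.21 ± 0.015 and an adjusted p of 1.02e-40 by the exact binomial test. The difference between the endoplasmic reticulum list and the heat shock genes was not tested.

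**Figure D5:**
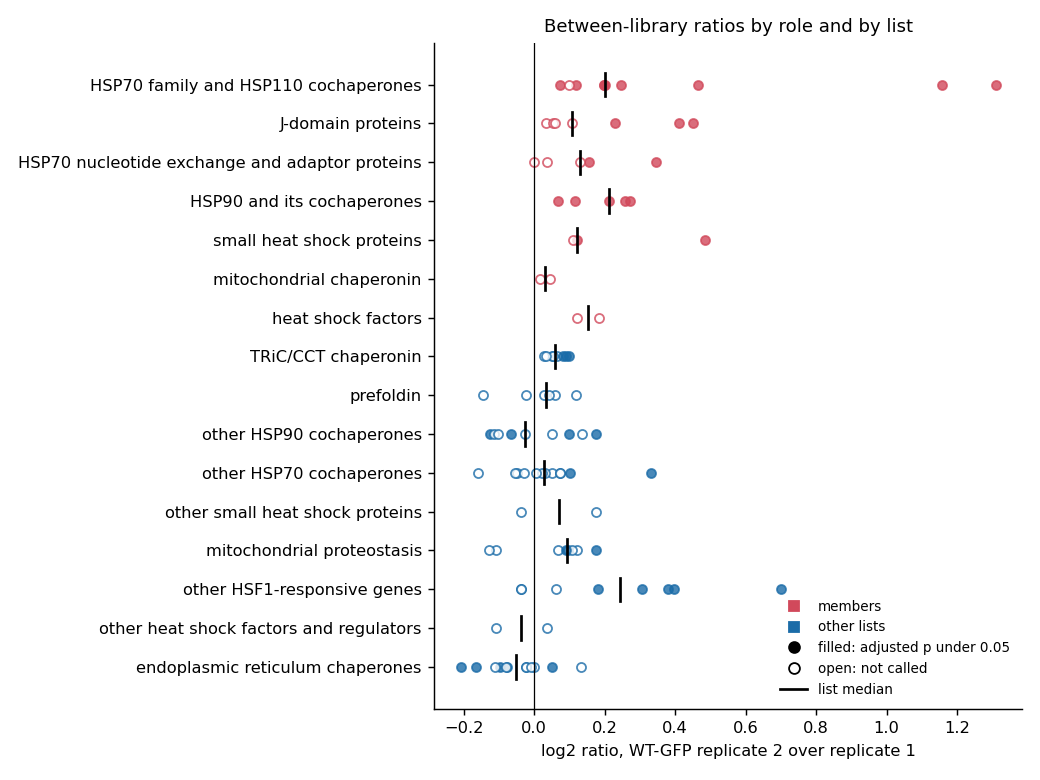
Each row is a list of genes by role and each point 1 gene tested, placed by its log2 ratio of replicate 2 to replicate 1 (horizontal axis); red marks the heat shock genes except Ubb, the lone polyubiquitin gene, and blue the other lists, filled points have an adjusted p under 0.05 and vertical bars are list medians. The medians of the red rows run from 0.03 (mitochondrial chaperonin) to 0.21 (HSP90 and its cochaperones), and those of the blue rows from -0.05 (endoplasmic reticulum) to 0.24 (other HSF1-responsive genes).

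Cell markers also differed between the libraries. Summed over the list, hepatocyte markers stood at 2317 FPKM in replicate 2 and 2486 FPKM in replicate 1, and 6 of the 9 tested were lower in replicate 2 and 0 were higher, where 6.38% of all genes tested were lower and 8.38% were higher. Progenitor or biliary markers summed to 1604 FPKM in replicate 2 and 1653 FPKM in replicate 1, with 2 higher (Epcam and Spp1) and 2 lower (Krt19 and Cd24a) of 7. Epcam had the largest absolute log2 ratio of these, 0.91, from 98 counts in replicate 2 and 54 counts in replicate 1. Such low levels weigh little in the sum. Macrophage markers summed to 21.8 FPKM in replicate 2 and 16.7 FPKM in replicate 1, where Cd68 was the gene that passed the test. Endothelial markers summed to 0.702 FPKM in replicate 2 and 0.614 FPKM in replicate 1, and stellate cell or fibroblast markers to 0.216 FPKM in replicate 2 and 0.411 FPKM in replicate 1. The part of these markers in the heat shock differences was not tested. In bulk RNA, a different number of cells expressing a gene and a different amount of its RNA per cell cannot be told apart.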

How the data were processed

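Per the file headers, the authors deposited a matrix of raw counts by gene symbol, with 9 numbered columns, and FPKM for WT-GFP replicates 2 and 1. HISAT2 (2.2.1.0) and the builds hg38 and mm10, with no role for either, are named in the submitters' processing notes. The kit was stranded, per the labels' protocols; counter, annotation and strand setting: not given in the sources used here. The 7 columns that no label ties to a sample were not used, and edgeR's quasi-likelihood test could not be fitted to 2 libraries of 1 group. The deposited FPKM equal the counts over column total and gene length: implied lengths were whole within 0.01 bp for 100% of genes with a count.

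Each gene with a mean of at least 10 counts was tested by a two-sided exact binomial test given the library totals (SciPy 1.17.1), with Benjamini-Hochberg adjustment over all 12302 genes tested. Log2 ratios had 0.5 added to each count, their ± is the counting SE, and TMM came from edgeR 4.0.16. Intervals and floors cover counting error only. On simulated counts of 12339 genes for these 2 libraries, 77.8% of 1.5-fold and 92.9% of 2-fold changes were recovered, and 6.67% of calls were false. The simulated counts held counting error only, as the test assumes. The real libraries differed by more, with a chi-square of 5.25 per degree of freedom. The simulation therefore does not give the share of false calls in the real data. Gene positions are from GENCODE M21 on GRCm38. Full values were given for the 5 most abundant of the 35 genes, the 8 with the largest ratios, both heat shock factors and both Hspa1 genes; of other lists, for the highest gene and that with the largest ratio, except for an item that is not reported here. Further genes were named to complete their role. The genes, lists and tests were chosen with earlier results of these data known.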

Additional observations from a re-analysis of the deposited data

How the results depend on the processing

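None of the 22 genes that passed changed sign under TMM library sizes, no filter, a minimum mean of 100 counts, library totals without the 35 genes, a pseudocount of 1 or Hspa1a and Hspa1b summed. Genes of the 35 higher in replicate 2 numbered 21 to 23 under these settings, against 22, and 0 were lower. A change of sign was hardly possible, because the count filters leave each log2 ratio as it is and other library sizes shift all ratios alike. Hsp90ab1, with the lowest ratio of those that passed, went from 0.068 to 0.055 with TMM. Ahsa1 lost its call with TMM (adjusted p = 0.0613) and without a filter (0.0506), and Dnajb6 gained one at 100 counts (0.0443) and with totals without the 35 genes (0.0433), by the exact binomial test. Bag1, which did not pass, had a log2 ratio of -0.0011 and 0.0017 with totals without the 35 genes. TMM turned the split of all genes tested to 836 higher and 958 lower, against 1031 and 785. A minimum log2 ratio of 0.5 left 2 of the 35 genes higher, and 122 higher and 66 lower of all genes. The median level of the 35 genes was 36.3 FPKM with GENCODE exon lengths, against 70.8 FPKM, and 56.7 to 71.6 FPKM with either library left out; 9 genes were lower by over 1.5 times with GENCODE lengths and 0 were higher. Both shifts follow from the lengths and libraries used. No paired analysis was possible because only 1 group could be analysed. At least 20% of the 50-base stretches recur in other genes in 11 of the 35 genes, and the counting of such reads by the authors is not stated.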
